A study of Arabidopsis thaliana with 23 samples.

Results

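The loci described here are those at which acetylated histone H4 (H4ac) differed between *axe1-5* and WT seedlings that had been mock treated, without methyl jasmonate (MeJA). A locus was called gained when the summit of an H4ac peak lay inside it in both *axe1-5* lists and in neither WT list, and lost when the reverse held. Of 37899 annotated nuclear loci, 17319 had a summit in at least 1 of the 4 lists and could be called, and these are the tested loci. Among them 1269 were gained and 252 were lost, which makes 1521 members. Gained loci made up 7.33% of the tested loci and 3.35% of all annotated loci, and lost loci made up 1.46% of the tested loci. A further 9721 loci had a summit in all 4 lists.

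Chromatin was taken from whole *Arabidopsis thaliana* seedlings aged 12 days and kept for 3 h on mock plates. WT was the DR5 line in the Col-0 background and *axe1-5* was the mutant of *HDA6* compared with it, with 2 replicates each. The same 2 genotypes after 3 h on 50 µM MeJA (4 H4ac lists), and the repressive mark H3K27me3 in mock-treated seedlings (4 lists), served as further readouts that the rule did not use. Only 1 mutant allele was studied, and in whole seedlings more cells with a mark and more of the mark per cell cannot be told apart.

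*HDA6* encodes a histone deacetylase of the RPD3 type, which removes acetyl groups from histone tails. Acetylation of H4 loosens chromatin and marks the start of active genes, whereas loss of it goes with silencing. HDA6 is known for keeping transposons, repeats and a number of developmental and stress genes silent, together with DNA methylation. H4ac peaks therefore lie mostly near the start of transcribed genes, while pericentromeric chromatin, which is rich in transposons and pseudogenes, carries few of them.

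The WT libraries were the shallower ones. After removal of duplicate positions, WT kept 5927987 and 3235473 tags, and *axe1-5* kept 7025483 and 7222121 (replicates 1 and 2). In WT replicate 1 this removal took 61.2% of the tags, against 22.8% to 31.9% in the other 3 libraries. The lists held 12065 and 12862 peaks in WT, and 15727 and 13200 in *axe1-5*. Genotype and depth of library thus cannot be told apart in the numbers of gained and lost loci. When each list was reduced to its 12065 best-scoring peaks, 15894 loci could be called, 766 (4.82%) were gained and 663 (4.17%) were lost, so the gained and lost loci came close in number. Of these, 691 gained and 225 lost loci were also called with the full lists.

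The DNA under the summits of a few members is printed first, because these loci return in each section below. Each sequence is 121 bases of TAIR10.1 centred between the summits of both replicates, written along the strand of the locus, with CG dinucleotides, the main target of maintenance DNA methylation, in capitals. *OFP9* (chr4:1937676-1937796, minus strand) ranked first among the gained protein-coding loci without an overlapping WT peak, by the lower of its replicate values, and AT3G54730 (chr3:20259296-20259416, plus strand) is a near copy of it.
OFP9: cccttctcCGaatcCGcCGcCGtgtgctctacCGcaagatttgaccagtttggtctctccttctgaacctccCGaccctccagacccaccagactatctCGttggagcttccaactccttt
AT3G54730: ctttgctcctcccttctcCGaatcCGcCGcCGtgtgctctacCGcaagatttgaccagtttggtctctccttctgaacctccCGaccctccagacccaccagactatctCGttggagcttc
Over the whole loci the longest stretch without a difference between these copies was 350 bases, and 71.9% of the stretches of 51 bases (the tag size) in *OFP9* also occur in AT3G54730. Around both summits all 71 such stretches are repeated, with up to 3 copies in the genome. Reads of that length from one copy can be placed on the other, so the mark at this pair cannot be assigned to a single copy. *SADHU3-1* (chr3:15813676-15813796, minus strand) and *SADHU3-2* (chr3:14749944-14750064, minus strand) belong to the Sadhu retroposons and were both gained.
SADHU3-1: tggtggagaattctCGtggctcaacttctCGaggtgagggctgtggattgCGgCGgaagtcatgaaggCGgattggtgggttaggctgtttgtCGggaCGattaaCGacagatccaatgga
SADHU3-2: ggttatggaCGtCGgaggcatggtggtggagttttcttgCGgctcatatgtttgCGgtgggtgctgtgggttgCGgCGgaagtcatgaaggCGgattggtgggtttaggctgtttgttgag
These elements resemble each other, yet their longest identical stretch was 35 bases, below the tag size. Reads that match exactly can thus tell them apart, while the placing of reads with mismatches was not tested. *HDA7* (chr5:13771416-13771536, minus strand), *PDC1* (AT4G33070, chr4:15954379-15954499, minus strand) and the pseudogene AT4G03816 (chr4:1767230-1767350, minus strand) were gained, and *UBP18* (chr4:15339276-15339396, minus strand) ranked first by the same rule among the lost protein-coding loci without an overlapping *axe1-5* peak.
HDA7: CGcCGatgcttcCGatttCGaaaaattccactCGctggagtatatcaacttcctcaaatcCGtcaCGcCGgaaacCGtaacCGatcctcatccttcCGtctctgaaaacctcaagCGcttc
PDC1: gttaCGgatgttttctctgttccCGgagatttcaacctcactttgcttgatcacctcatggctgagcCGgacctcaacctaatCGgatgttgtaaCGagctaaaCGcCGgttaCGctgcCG
AT4G03816: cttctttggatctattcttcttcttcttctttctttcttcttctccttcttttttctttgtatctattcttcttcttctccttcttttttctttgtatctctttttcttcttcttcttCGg
UBP18: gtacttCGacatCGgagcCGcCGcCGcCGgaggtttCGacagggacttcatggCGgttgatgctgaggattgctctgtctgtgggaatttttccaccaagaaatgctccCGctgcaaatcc
The windows of *HDA7* and *PDC1* held 12 and 9 CG dinucleotides, while that of AT4G03816, a run of CT-rich repeats, held 1. Over all members the mean was 5.91 CG per window at gained loci and 5.32 at lost loci, against 6.64 at loci with a summit in all 4 lists. The GC content of the same windows averaged 46.2%, 41.6% and 45.7%.

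Gained H4ac was weaker than H4ac at loci shared by both genotypes. The fold enrichment, the height of a peak over the level modelled from the input, is given per locus as that of its highest peak with a summit inside. At gained loci it ranged from 2.41 to 14.0 in *axe1-5* replicate 1 (median 4.91) and from 3.72 to 21.1 in replicate 2 (median 7.41). Loci with a summit in all 4 lists had medians of 6.93 and 10.1 in the same 2 libraries. Relative to the median of all peaks in its list, the median gained locus reached 0.802 and 0.790. Lost loci had median fold enrichments of 5.09 and 6.08 in the 2 WT libraries, against 6.27 and 7.35 at the shared loci.

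Many members sat close to the threshold of the peak caller. In 742 gained loci (58.5%) and 123 lost loci (48.8%) the lower of both replicate scores was below 100, where the score rises with the negative log10 of the MACS p-value. With a score of at least 100 required of every peak, 1097 loci were gained and 272 lost, but 527 and 129 of them were the same loci as before. Just outside the rule, 1609 loci had a summit in both *axe1-5* lists and in 1 WT list, and 1626 had one in a single *axe1-5* list and none in WT. On the other side, 1038 loci had both WT summits and 1 *axe1-5* summit.

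A missing summit is not a missing peak. At 1034 gained loci (81.5%) no peak of either WT list touched the locus, while at 235 a WT peak overlapped it with its summit elsewhere. For the lost loci this was reversed: 79 (31.3%) were free of any *axe1-5* peak, and 173 (68.7%) were overlapped by one. At most lost loci, then, an *axe1-5* peak was still present with its summit elsewhere, and the loci named as leading below were all free of peaks on the other side.

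Among the gained protein-coding loci without an overlapping WT peak, the 10 with the highest lower replicate value were mostly genes of unknown function, and several lay near centromeres. *OFP9*, encoding an OVATE family protein, a class of transcriptional repressors in plant development, had fold enrichments of 12.2 and 12.5 in *axe1-5* and no summit in either WT list. AT3G54730, its near copy, had 11.1 and 13.6. AT4G07526 had 11.4 and 14.9, AT5G26270 had 11.2 and 18.01, and AT5G41660 had 11.03 and 18.8. All 5 had no summit in either WT list after MeJA as well, whereas both *axe1-5* +MeJA lists had one, at 14.06 to 18.05.

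The other 5 were AT2G24780 (11.04 and 16.4), AT3G44006 (10.8 and 11.8), AT5G33390, a glycine-rich protein (10.6 and 13.1), AT1G73620, a thaumatin-like protein of the pathogenesis-related kind (10.1 and 12.6), and AT4G07965 (9.84 and 16.5). Only AT1G73620 had a summit in a WT list after MeJA, in replicate 2 (9.14). AT2G24780 lost its call when an FDR of at most 5% was required or when the 1000 bp upstream were counted, and 50 of the 71 stretches of 51 bases around its summit occur more than once in the genome. Of the 10 loci, AT4G07526, AT5G33390, AT4G07965, *OFP9* and AT3G44006 lay within 2.5 Mb of a centromere centre (0.86, 0.76, 1.31, 1.56 and 2.1 Mb).

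**Figure D1:**
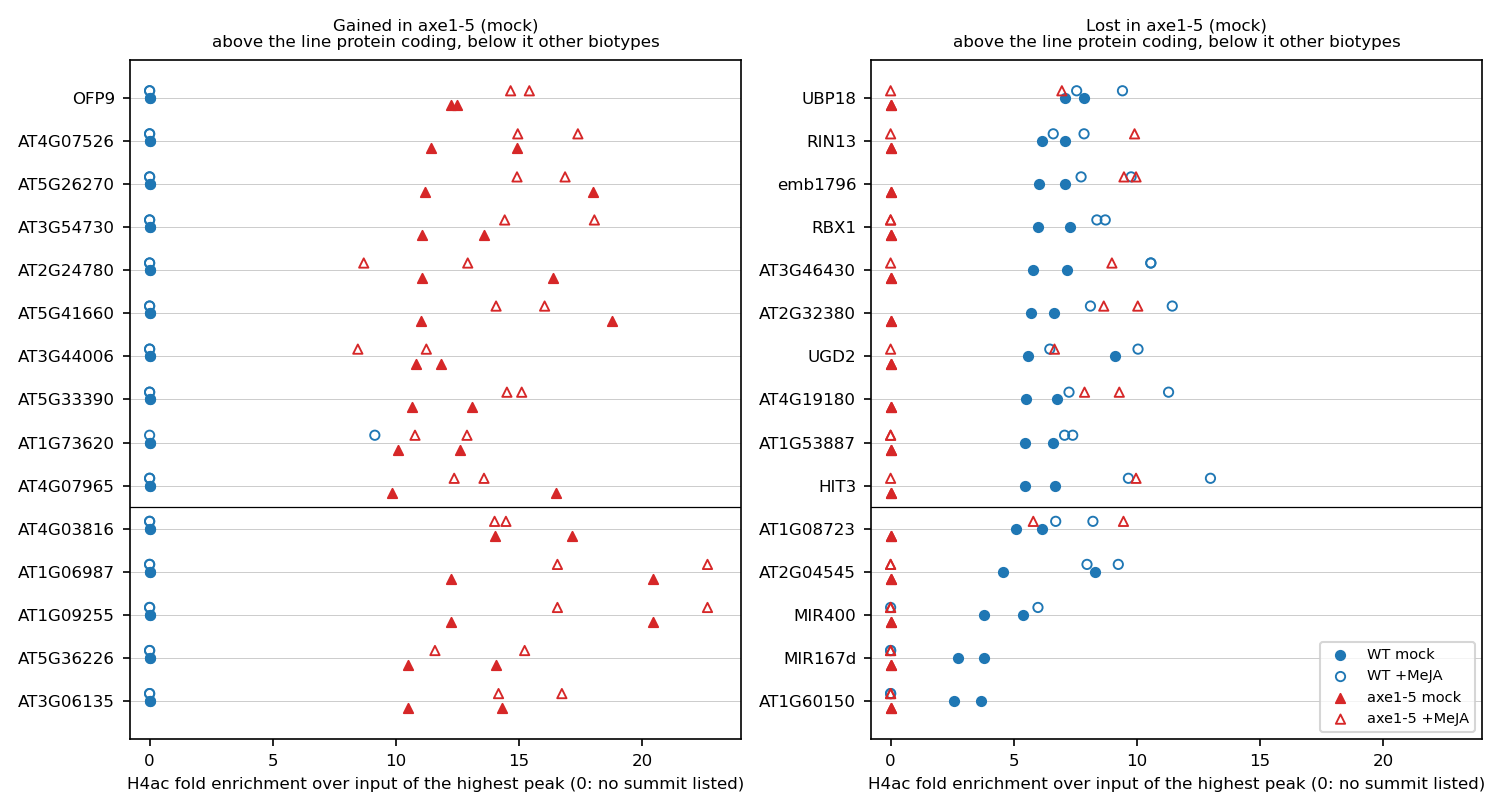
H4ac fold enrichment over input (x axis, linear) of the leading gained (left) and lost (right) loci without an overlapping peak on the other side, 1 point per library: circles WT, triangles *axe1-5*, filled mock, open +MeJA. At 0 no summit was listed. The gained loci stay at 0 in WT after MeJA except AT1G73620, whereas 9 of the 15 lost loci have a summit in at least 1 *axe1-5* +MeJA list.

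Among gained loci of other biotypes ranked in the same way, the pseudogene AT4G03816 on chromosome 4 came first (14.0 and 17.2). AT1G06987, a long non-coding RNA, and AT1G09255, an unclassified RNA, overlap each other 0.94 Mb from the centre of chromosome 1 and share 1 summit per library (12.2 and 20.4). The pseudogene AT5G36226 had 10.5 and 14.0, and the long non-coding RNA AT3G06135 had 10.5 and 14.3. None of these had a summit in any of the 4 WT lists, and all had one in all 4 *axe1-5* lists. AT5G36226 lost its call at an FDR of at most 5%, and AT4G03816 when the 1000 bp upstream were counted.

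Of the 229 lost protein-coding loci, 74 were free of *axe1-5* peaks, and the 10 leading ones among these included genes of protein turnover, energy supply and cell walls. *UBP18*, a ubiquitin-specific protease, had fold enrichments of 7.06 and 7.84 in WT and no summit in *axe1-5*. *RIN13*, whose protein binds the immune receptor RPM1, had 6.13 and 7.08. *emb1796*, a pentatricopeptide repeat protein needed in the embryo, had 6.03 and 7.06, and *RBX1*, the RING subunit of cullin-type ubiquitin ligases, had 5.97 and 7.29. AT3G46430, a subunit of ATP synthase, had 7.16 and 5.79, and *UGD2*, which makes UDP-glucuronic acid for cell walls, had 5.59 and 9.11. AT2G32380, AT4G19180, AT1G53887 and *HIT3* completed the 10, with 5.44 to 6.75 in WT.

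After MeJA these 10 lost loci had a summit in both WT lists, at 6.46 to 13.0. Only *RBX1* and AT1G53887 also had none in either *axe1-5* +MeJA list. All 71 stretches of 51 bases around the summit of AT1G53887 are found in 2 copies in the genome, so its value is uncertain. Of the 10, AT1G53887, AT3G46430, *HIT3* and AT4G19180 were not called at a score of at least 100. Among other biotypes the leading lost loci were the RNAs AT1G08723 (5.09 and 6.16) and AT2G04545 (4.58 and 8.31), the microRNA precursors *MIR400* (5.38 and 3.81) and *MIR167d* (2.73 and 3.77), and the pseudogene AT1G60150 (2.56 and 3.66), none of which was called at a score of at least 100.

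By biotype, pseudogenes stood out among the gained loci. Of 354 pseudogenes tested, 99 were gained (28.0%, against 7.33% over all tested loci) and 4 were lost (1.13%, against 1.46%). For pseudogenes annotated without a transcript the numbers were 71 of 202 (35.1%), and for transcribed ones 28 of 152 (18.4%). The tested loci include those tested only because *axe1-5* had a summit, so the share of annotated loci is given too: 2.04% of 4843 pseudogenes were gained, below the 3.35% over all loci, and 354 of the 4843 had a mock H4ac summit. At 93 of the 99 no WT peak touched the locus. With lists of equal length, 78 of 301 pseudogenes were gained (25.9%, against 4.82%) and 5 were lost.

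Protein-coding loci made up 1098 of the gained (6.83% of 16082 tested) and 229 of the lost (1.42%). Of 621 long non-coding RNAs, 51 were gained (8.21%) and 14 lost (2.25%). Other non-coding RNAs gave 19 of 179 (10.6%) and none lost. MicroRNA precursors went the other way, with 0 of 28 gained and 4 lost (14.3%), 2 of them overlapped by a peak in *axe1-5*. These are 28 loci, and a single locus more or less moves that share by several points.

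Per library, the share of loci with a summit that were not protein coding was 5.54% and 5.50% in WT, and 6.57% and 6.53% in *axe1-5*. The means were 5.52 ± 0.027% and 6.55 ± 0.029% (SD, n = 2), a difference of 1.03 percentage points, beyond the spread of the replicates. After MeJA the shares were 5.59% and 5.60% in WT, and 6.41% and 6.44% in *axe1-5*. In both treatments each *axe1-5* library was above each WT library. An exact permutation of the genotype labels (two-sided) gave p = 0.333 for the mock libraries and p = 0.0556 for all 8 libraries, permuted within treatment over 36 arrangements; each is the smallest p that the design allows.

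Transposon-related loci were chosen by words in the annotation and are in part the same loci as the pseudogenes. Of 50 tested, 11 were gained (22.0%) and 0 lost, and with equal lists 10 of 46 (21.7%). Among the 11 were 4 Sadhu elements, a small family of retroposons that HDA6 is known to repress. These 4 are annotated as pseudogenes and are counted among the 99 gained pseudogenes as well. Looked at as a family after their values had been seen, 4 of 16 annotated Sadhu elements were gained, 8 had a summit in both WT lists and 4 had none in any mock list. *SADHU3-2* had fold enrichments of 8.29 and 13.9, *SADHU3-1* had 8.56 and 11.5, *SADHU5-2* had 7.93 and 12.4, and *SADHU5-1* had 4.94 and 9.65. All 71 stretches of 51 bases around the *SADHU5-1* summit are repeated in the genome, up to 3 times, so its value is uncertain. *SADHU7-1*, by contrast, was high in WT (17.0 and 16.7) and in *axe1-5* (12.4 and 24.03). *SADHU5-1* also carried H3K27me3 in all 4 lists (11.8 and 16.2 in WT, 11.6 and 21.2 in *axe1-5*), and its WT +MeJA replicate 1 had an H4ac summit (4.59).

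The remaining transposon-related loci included AT3G30200, a transposase of the En/Spm kind (7.69 and 11.6), AT3G26855 (9.65 and 15.2) and AT4G20700 (5.48 and 11.2), both related to reverse transcriptases. A WT peak overlapped AT3G26855, which also had a summit in WT +MeJA replicate 1 (10.1). *TERT*, the reverse transcriptase of telomerase, is on the same list by its name only (3.65 and 5.46), and a WT peak overlapped it.

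Repeated sequence was more common at gained than at shared loci, and touched few of either. Around the summit, at least 1 stretch of 51 bases was repeated elsewhere in the genome at 66 gained loci (5.20%), 9 lost loci (3.57%) and 268 loci with a summit in all 4 lists (2.76%). Among pseudogenes the shares were 13.1% of the gained and 14.3% of those in all 4 lists. Without such loci, 1203 gained loci remained, 86 of them pseudogenes, and 243 lost loci.

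Among protein-coding families the shares of gained loci ranged widely, also among regulators of transcription. MYB genes had 7 of 108 (6.48%, and 2.15% with equal lists) and bHLH genes 9 of 88 (10.2%, and 3.8% with equal lists, below the 4.82% over all loci). MADS box genes, which specify floral organs and gamete-forming tissues, had 12 of 43 tested gained (27.9%) and 0 lost, all 12 free of any WT peak, though with lists of equal length they were 5 of 30 (16.7%). The best known is *SOC1* (annotated as *AGL20*), a floral integrator, with 3.93 and 6.62. *AGL91* had 7.77 and 7.51, AT5G27810 had 6.62 and 9.32, *AGL64* had 4.77 and 8.31, and *AGL58* had 4.28 and 7.31. Of the 129 annotated MADS box genes, 108 had no summit in WT and 12 had both.

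B3 domain genes followed with 6 of 25 (24%), among them AT1G20600 (5.42 and 9.46), and then loci annotated as lipid transfer, seed storage or late embryogenesis abundant (LEA) proteins with 16 of 75 (21.3%). The latter were mostly annotated as LEA proteins, some of which protect drying seeds, such as AT1G72100 (8.01 and 9.60), and 6 of the 16 were LEA hydroxyproline-rich glycoproteins, a family that takes in defence proteins despite its name. AT5G56100, annotated as oleosin (6.20 and 9.17), was overlapped by a WT peak. On a separate list of 22 regulators and storage proteins of embryo and seed, only 1 locus was tested and 0 were gained. NAC genes, regulators of organ boundaries and ageing, had 7 of 37 gained (18.9%), including *NAC1* (5.42 and 8.30) and *NAC093* (5.87 and 9.46).

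Loci whose annotation mentions auxin response, SAUR or GH3 proteins had 8 of 48 gained (16.7%). These words also take in genes of other kinds, such as *HDA6* itself, which was tested but not gained. The 8 included *IAA28*, a repressor of auxin response (4.44 and 7.12), and *WES1*, a GH3 enzyme that conjugates auxin to amino acids (5.38 and 5.00). Loci whose annotation mentions F-box proteins, the substrate adaptors of ubiquitin ligases, contributed the largest number of these families, 39 of 260 (15.0%). The words also take in genes of other kinds, such as the JAZ repressor gene *JAZ9*, which was tested but not gained. Cytochrome P450 genes had 17 of 128 (13.3%), UDP-sugar dependent enzymes 13 of 99 (13.1%) and AP2/ERF regulators 11 of 90 (12.2%). The AP2/ERF share was no lower with lists of equal length (11 of 85, 12.9%), and its members included *ESR1*, a regulator of shoot formation (5.18 and 7.71), AT1G12630 (9.11 and 12.4) and AT5G21960 (6.35 and 11.7).

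Some large families held few gained loci. Loci whose annotation mentions photosystems, chlorophyll or light harvesting had 2 of 124 (1.61%), and neither is a photosynthesis gene by its product: *ABCC3* (4.84 and 6.96) is annotated as a multidrug resistance-associated protein and AT1G69680 (5.29 and 7.53) as a putative Ran guanine nucleotide release factor. A WT peak overlapped both. The 2 lost on the same list were *LHCB2.1*, a light-harvesting protein (3.87 and 3.14 in WT), and *PGR5*, which acts in cyclic electron flow (6.79 and 5.31). An *axe1-5* mock peak overlapped *PGR5*, which also had summits in both *axe1-5* +MeJA lists (8.47 and 8.93). Pentatricopeptide repeat genes had 4 of 236 (1.69%), heat shock and DnaJ genes 6 of 212 (2.83%) and ribosomal proteins 10 of 286 (3.50%). In these 4 groups 88, 172, 154 and 191 of those tested had a summit in both WT lists. Shares of lost loci were between 0.699% and 1.61%. With lists of equal length, however, heat shock and ribosomal genes had more lost than gained loci (12 against 0, and 13 against 4). Of the 22 families, peroxidases (1 of 27, 3.70%) and cytochrome P450 genes (4 of 128, 3.12%) had the highest shares of lost loci with the full lists. The share over all tested loci was 1.46%. The peroxidase share rests on 1 locus, and only 1 of the 4 lost cytochrome P450 loci was free of an overlapping *axe1-5* peak.

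**Figure D2:**
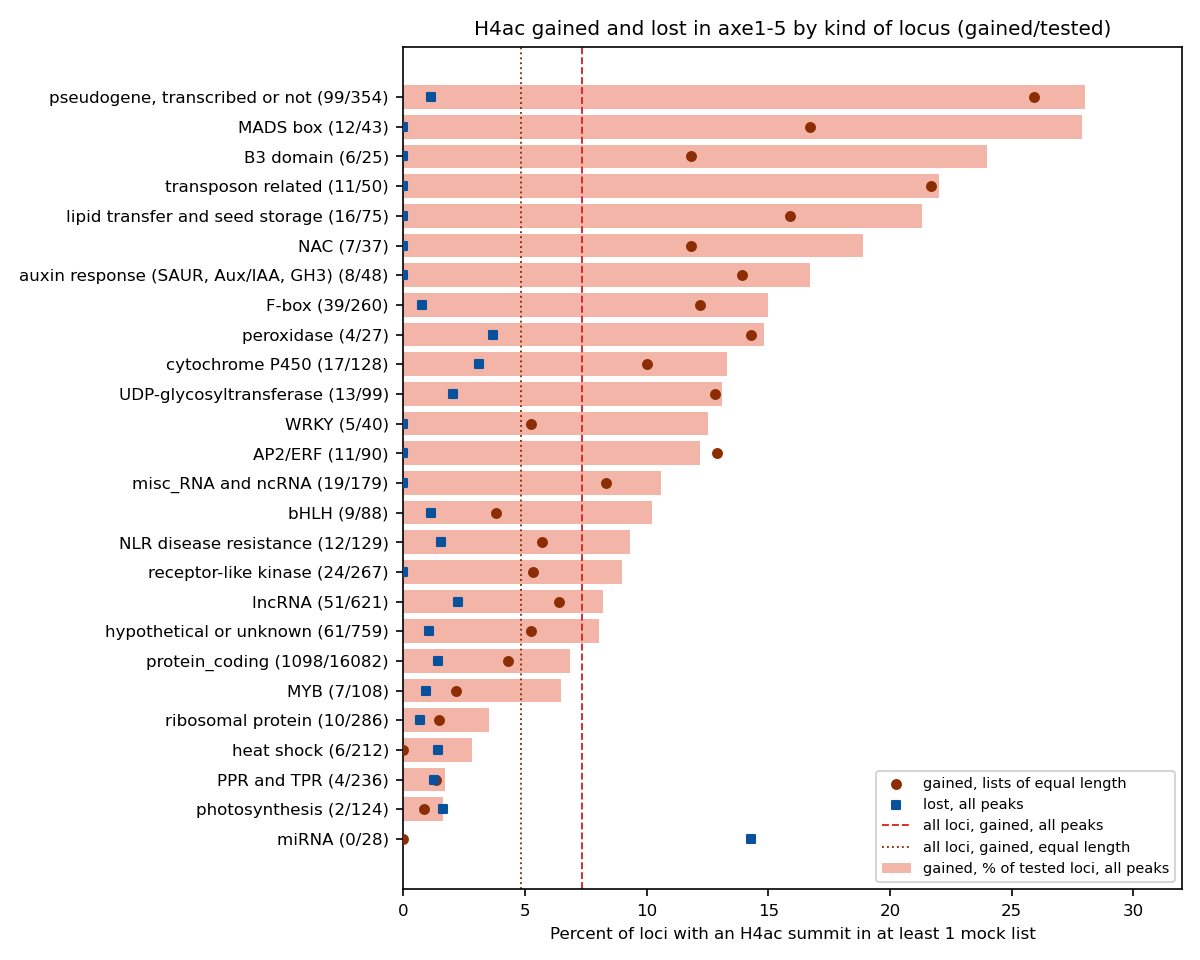
Percent of tested loci that gained H4ac (bars), by biotype or family with at least 20 loci tested, with gained and tested numbers in brackets; dark points give the gained share with lists of equal length, squares the lost share, and lines the shares over all loci (7.33%, dashed, and 4.82%, dotted). Pseudogenes stay far above the line in both settings, whereas MADS box and B3 genes come nearer to it with equal lists.

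Loci of known pathways were few among the members. Among 6 loci of the acetate pathway, which turns pyruvate into acetate during drought, 2 were gained (33.3% of 6, against 7.33% over all tested loci). These loci are too few for that difference to be read as an excess. *PDC1*, a pyruvate decarboxylase, had 7.37 and 9.46 in *axe1-5*, and *ALDH2B7*, the aldehyde dehydrogenase that follows it, had 5.07 and 6.73. After MeJA, *PDC1* had a summit in WT too (7.53 and 7.88) and in *axe1-5* (11.2 and 15.2), whereas *ALDH2B7* had none in WT and 6.72 and 9.16 in *axe1-5*. *ALDH2B7* did not keep its call at a score of at least 100 or with equal lists. *PDC2* had a summit in all 4 mock lists.

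Of 18 histone deacetylase loci, 12 were tested and only *HDA7*, a close relative of *HDA6*, was gained (8.33%, near the 7.33% over all tested loci), with 8.01 and 11.3. It lies 1.87 Mb from the centre of chromosome 5. After MeJA it had 13.5 and 14.8 in *axe1-5* and a summit in 1 WT list (5.49). *HDA6* itself had a summit in every H4ac list: 5.87 and 8.36 in WT, 9.13 and 11 in *axe1-5*, and after MeJA 10.2 and 14.5 in WT and 9.08 and 10.04 in *axe1-5*. Both *axe1-5* values were above both WT values in mock and below both after MeJA. The median fold enrichment of all peaks also differed between lists, with 5.9 and 6.83 in WT mock and 6.12 and 9.38 in *axe1-5* mock. After MeJA it was 9.2 and 9.98 in WT, and 8.32 and 10.7 in *axe1-5*. The order of the *HDA6* values therefore cannot be told apart from the scale of the libraries. Since the lists hold a histone mark and no transcript, they do not test the genotype labels.

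Among 16 flowering regulators, 10 were tested and 2 gained (20%, against 7.33%), numbers too small to be read as an excess. The 2 were *SOC1*, above, and *SMZ*, an AP2-type repressor of flowering, with 6.97 and 10.7. *SMZ* also had summits in both WT lists after MeJA (10.97 and 8.93). Neither was called at a score of at least 100. *FLC*, the main repressor of flowering before winter, was not a member, because WT replicate 1 had a summit (5.87) besides both *axe1-5* libraries (8.75 and 11.8).

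Among 16 loci of the DNA methylation pathway and its known targets, 13 were tested, 1 gained and 1 lost (7.69% each, against 7.33% and 1.46%). Such counts are too small to set against the shares over all loci. *NRPD1*, the largest subunit of RNA polymerase IV, which starts small RNA synthesis for DNA methylation, had 4.56 and 7.05 in *axe1-5*, a call not kept at a score of at least 100 or with equal lists. *MET1*, which maintains CG methylation, was lost, with 4.49 and 5.96 in WT, but an *axe1-5* peak overlapped it, and after MeJA the order was reversed, with 4.69 and 5.84 in *axe1-5* and no summit in WT. *SDC*, a gene silenced by DNA methylation, had a summit in *axe1-5* replicate 1 alone (5.94), and *FWA*, another, had none in the mock lists.

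Among 31 jasmonate loci, 24 were tested, 3 gained (12.5%) and 1 lost (4.17%), numbers too small to set against the shares over all loci. *AOC2*, an allene oxide cyclase of jasmonate synthesis, had 4.32 and 5.22 in *axe1-5*. Of the JAZ repressors of jasmonate response, *JAZ8* had 3.58 and 6.24, and *JAZ6* had 4.22 and 5.46 with an overlapping WT peak. *JAZ3* was lost (4.19 and 5.83 in WT), with an overlapping *axe1-5* peak. In WT +MeJA lists *AOC2* and *JAZ8* had summits in both replicates (8.76 and 8.57, and 6.80 and 7.40), and *JAZ6* had none. None of the 4 jasmonate members was called at a score of at least 100.

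Of 7 genes that the study itself picked out for *axe1-5*, 6 were gained, which is not independent evidence because they were chosen on these samples. Besides *JAZ6* and *JAZ8* they were *PYL2*, a receptor of abscisic acid (5.88 and 9.75), *HAI3*, a phosphatase induced by abscisic acid (3.88 and 5.85), *GID1A*, a gibberellin receptor (4.91 and 6.20), and *NF-YA10*, a subunit of a CCAAT-binding factor (3.04 and 5.18). Of these 6, only *PYL2* was still gained when a score of at least 100 was required. *PYL2* also had no WT summit after MeJA, against 10.2 and 11.9 in *axe1-5*.

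**Figure D3:**
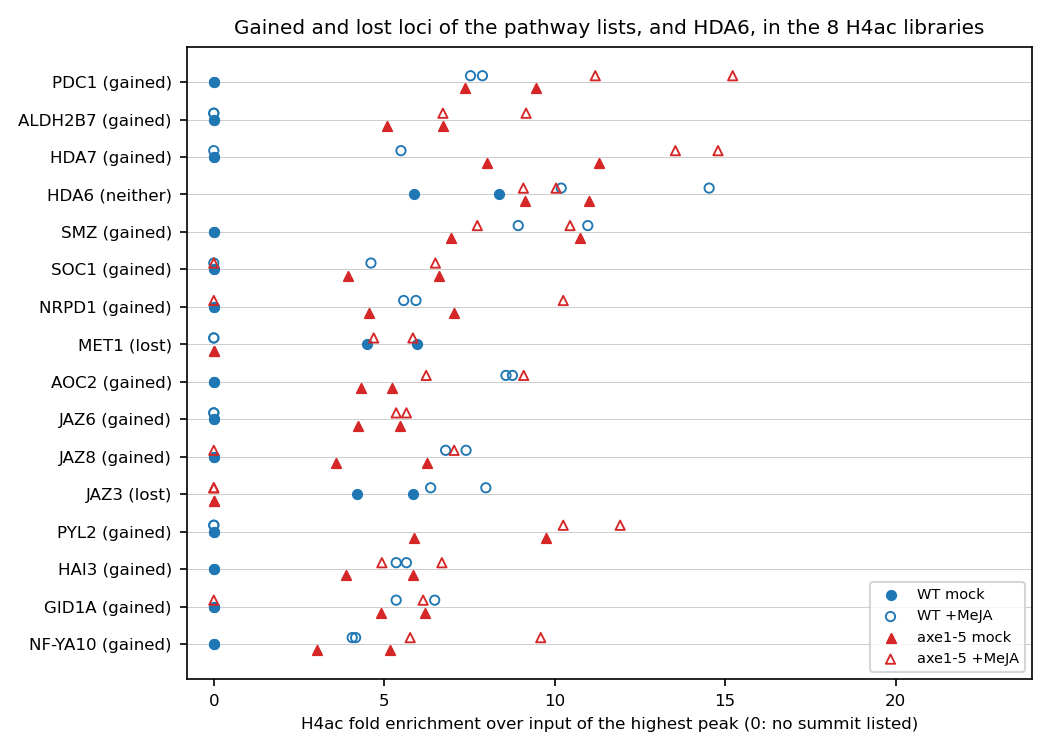
H4ac fold enrichment over input (x axis, linear) of the members found on the pathway lists, and of *HDA6*, 1 point per library: circles WT, triangles *axe1-5*, filled mock, open +MeJA, and 0 where no summit was listed. *ALDH2B7*, *JAZ6* and *PYL2* stay at 0 in all 4 WT libraries, and *PDC1*, *SMZ*, *NRPD1*, *AOC2*, *JAZ8*, *HAI3*, *GID1A* and *NF-YA10* are above 0 in both WT +MeJA libraries. *NRPD1*, *JAZ8* and *GID1A* are at 0 in 1 *axe1-5* +MeJA library each.

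Along the chromosomes, gained loci were spread over all 5 in near-equal shares, from 7.11% of tested loci on chromosome 1 to 7.62% on chromosome 3. Lost loci ranged from 1.26% on chromosome 4 to 1.70% on chromosome 2. Within a chromosome the shares differed more. The centre of each centromere was set at the 1 Mb window with the fewest starts of protein-coding genes (14.8, 5.0, 13.7, 3.5 and 11.9 Mb on chromosomes 1 to 5), and loci within 2.5 Mb of it were called pericentromeric. Of 1110 pericentromeric loci tested, 131 were gained (11.8%) and 11 lost (0.991%), against 1138 (7.02%) and 241 (1.49%) of 16209 on the arms. With lists of equal length the gained shares were 9.58% and 4.5%. Of annotated loci, whether or not they had a summit, the order was reversed: 2.09% of 6273 pericentromeric loci and 3.6% of 31626 on the arms were gained.

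Among tested loci the difference was larger for those that do not code for protein. Near centromeres 39 of 109 pseudogenes (35.8%) and 22 of 110 non-coding RNA loci (20%) were gained, against 60 of 245 (24.5%) and 50 of 773 (6.47%) on the arms. For protein-coding loci the shares were 7.86% (70 of 891) and 6.77% (1028 of 15191). Of annotated pseudogenes, however, fewer were gained near centromeres (1.15% of 3405) than on the arms (4.17% of 1438). Of annotated protein-coding loci 3.2% and 4.07% were gained, and of annotated non-coding RNA loci 3.24% and 1.01%. The gained share was 13.2% within 1 Mb of the centre, 14.3% at 1 to 2 Mb, 8.86% at 2 to 3 Mb and between 5.77% and 7.74% beyond that. For protein-coding loci alone it was 11% within 1 Mb (15 of 136) and 5.82% to 7.76% elsewhere. Chromosome 3 stood apart, with 38 of 158 pericentromeric loci gained (24.1%), where the other 4 had 8.70% to 11.7%. The place of the centres is uncertain on the scale of these bins. Set at the window with the most pseudogenes, they lay at 15.8, 4.2, 12.6, 4.0 and 12.5 Mb on chromosomes 1 to 5. The bins, the shares per chromosome and the distances of single loci were not computed again from those centres.

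**Figure D4:**
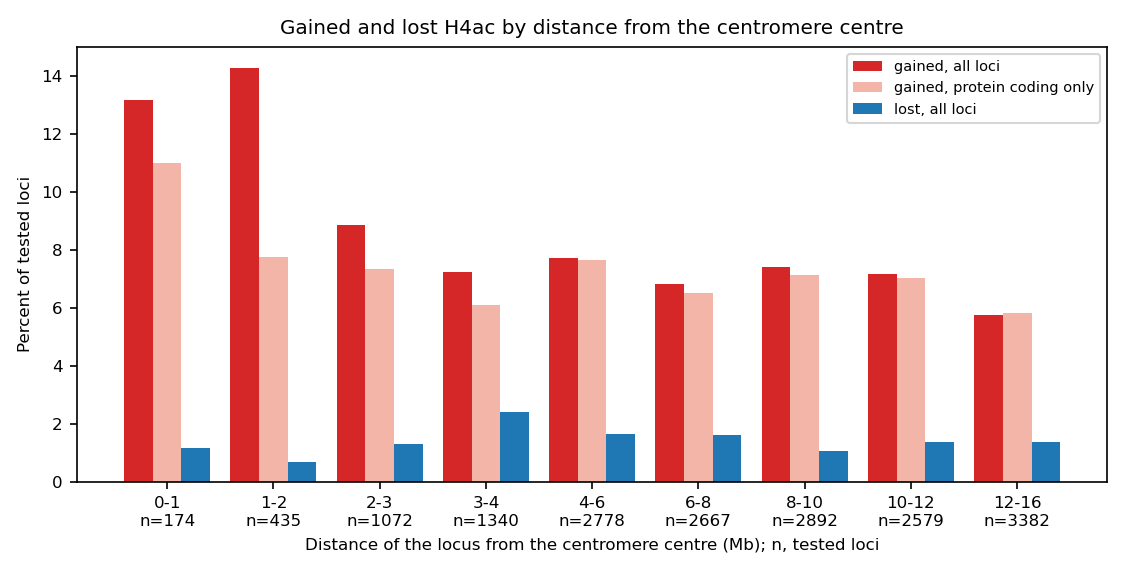
Percent of tested loci (y axis) that gained or lost H4ac, by distance of the locus from the centromere centre in Mb (x axis, n is the number tested). The gained share over all loci is 13.2% and 14.3% in the 2 innermost bins and 5.77% to 8.86% beyond, while the lost share stays between 0.69% and 2.39%. Distances are from the centres set by gene starts only.

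Whole libraries were compared next, since they are the replicates of the design. Of all H4ac summits, 6.45% and 6.25% were pericentromeric in WT, and 7.39% and 7.43% in *axe1-5*. The means were 6.35 ± 0.14% and 7.41 ± 0.026% (SD, n = 2), 1.06 percentage points apart. After MeJA the shares were 6.19% and 6.15% in WT, and 7.48% and 7.62% in *axe1-5*, so the genotypes did not overlap in either treatment. An exact permutation test (two-sided) gave p = 0.333 for the mock libraries and p = 0.0556 within treatment over all 8, again the smallest values possible.

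Summits outside any annotated locus were also counted. When summits within 500 bp of each other were joined into clusters regardless of annotation, 1436 of 17489 clusters were gained (8.21%) and 271 lost (1.55%). Of the 443 clusters outside annotated loci, 150 were gained (33.9%) and 9 lost, and of the 151 such clusters near centromeres, 65 were gained (43.0%) and 2 lost. Transposons without a gene name fall in this class, as the annotation used holds genes and pseudogenes only.

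Within protein-coding loci, most gained summits sat near the start of the gene, though somewhat farther from it than the shared ones. The median distance from the start was 380 and 393 bp at gained loci in *axe1-5* replicates 1 and 2, and 329 and 346 bp at shared loci in the same lists. Within 1000 bp of the start lay 84.2% of gained summits in either replicate, against 92.6% of shared ones. Gained genes were shorter, with a median of 1944 bp against 2469 bp for the shared, and lost genes had 2567 bp. Lost summits lay at a median of 318 and 288 bp in WT.

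The 300 bases around gene starts (250 before and 50 after) were searched for 3 motifs on both strands. The G-box CACGTG, bound by MYC factors, was in 7.10% of the promoters of gained genes and in 11.4% of those of lost genes (26 of 229), against 7.70% of all 27443 promoters. The auxin response element TGTCTC was in 14.3%, 15.3% and 14.3%. The telo box AAACCCTA was in 5.37%, 4.37% and 6.25%. GC content averaged 31.7% in gained, 33.9% in lost and 32.2% in all promoters. A match is a run of letters and does not show that a factor binds there.

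Gained loci were neighbours of one another more often than lost loci, though they were also more numerous. Another gained locus lay within 20 kb for 484 of them (38.1%), and another lost locus for 27 lost loci (10.7%). A larger set has closer neighbours under any layout, so these shares do not show clustering, which was not tested. Because annotated loci can overlap and share a summit, the 1269 gained loci amounted to 1231 separate regions and the 252 lost ones to 244.

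The MeJA-treated seedlings gave the same comparison in 4 separate libraries. There the same rule called 1464 loci gained (7.88% of 18569 tested) and 1384 lost (7.45%). Of the 1269 mock gained loci, 407 (32.1%) were gained again, against 5.18% of all loci tested in mock, and 940 (74.1%) had a summit in both *axe1-5* +MeJA lists. On the other side, 483 (38.1%) had a summit in both WT +MeJA lists, and 524 (41.3%) had none in either. The WT +MeJA libraries kept 8700467 and 9840934 tags and were thus deeper than mock WT, so treatment and depth cannot be told apart in the 483 loci. The *axe1-5* +MeJA libraries kept 10569841 and 14717755 tags, more than either WT +MeJA library. Genotype and depth therefore cannot be told apart in the loci gained again either.

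Gained pseudogenes and pericentromeric loci were gained again in larger shares than protein-coding loci and loci on the arms. Of 99 gained pseudogenes, 61 (61.6%) were gained again after MeJA and 15 (15.2%) had a summit in both WT +MeJA lists. Of 131 gained pericentromeric loci these numbers were 77 (58.8%) and 18 (13.7%), of 1098 gained protein-coding loci 311 (28.3%) and 450 (41.0%), and of 1138 on the arms 330 (29.0%) and 465 (40.9%). Of 19 gained non-coding RNAs of other kinds, 14 were gained again. Among families, 8 of 11 transposon-related loci, 12 of 24 receptor-like kinases and 5 of 12 NLR immune receptors were gained again. For MADS box genes it was 4 of 12, for AP2/ERF genes 2 of 11 and for MYB genes 0 of 7. These family counts are too small to set against the 32.1% over all gained loci. Of the 252 lost loci, 81 (32.1%) were lost again, against 7.08% of all loci tested, and 143 (56.7%) had no summit in either *axe1-5* +MeJA list. The loci tested again take in the 252 themselves and the 9721 with a summit in all 4 mock lists. Of those 9721, 3.35% had no *axe1-5* +MeJA summit and so could be called lost.

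**Figure D5:**
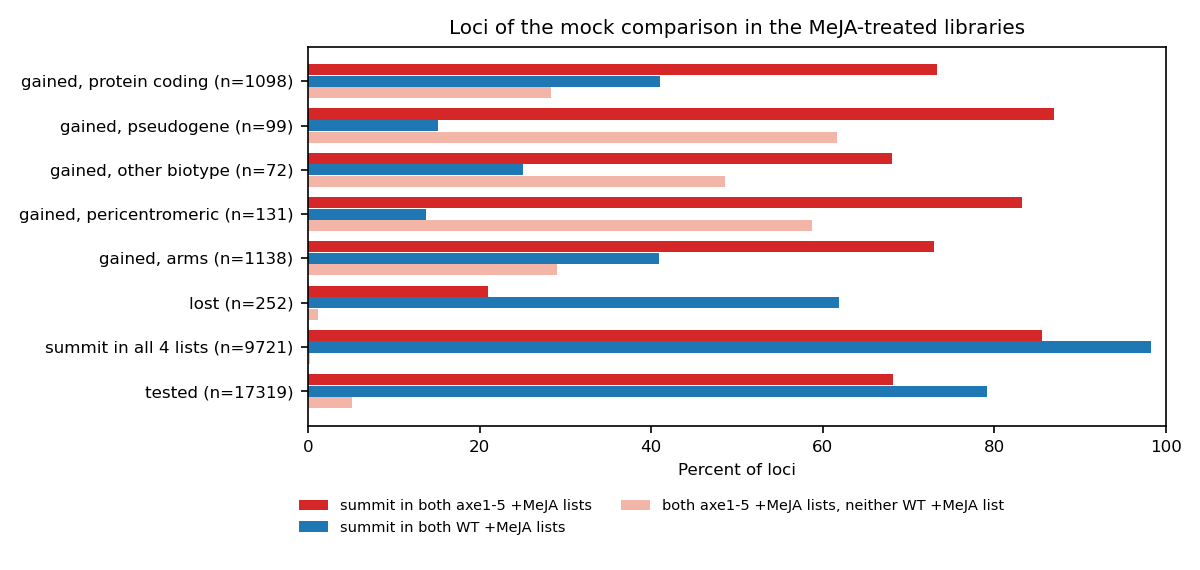
Percent of loci (x axis) of the mock comparison that had a summit in both *axe1-5* +MeJA lists, in both WT +MeJA lists, or in both of the former and neither of the latter, by set of loci with its number. Gained pseudogenes and pericentromeric loci have the lowest shares in WT +MeJA (15.2% and 13.7%), and lost loci the lowest in *axe1-5* +MeJA (21.0%).

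H3K27me3, laid down by Polycomb complexes at silent developmental genes, was measured in the same mock-treated groups. A summit in both WT lists was found at 128 gained loci (10.1%), 2 lost loci (0.794%) and 89 loci with H4ac in all 4 lists (0.916%), against 2.71% of the tested loci and 7.91% of loci without a mock H4ac summit. Of the 128, 121 were protein coding, 5 were pseudogenes and 3 were pericentromeric. The cytochrome P450 family gave 7 of its 17 gained loci, AP2/ERF 4 of 11 and MYB 3 of 7, while MADS box genes gave 1 of 12 and B3 domain genes 0 of 6.

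In *axe1-5* the mark was found in both lists at 169 gained loci (13.3%), 91 of which had it in all 4 lists. It was in both WT lists and neither *axe1-5* list at 5 gained loci, and the reverse at 18, of which 8 were pericentromeric. *PYL2*, with a mock H4ac summit in *axe1-5* only, carried H3K27me3 in both genotypes, with fold enrichments of 10.2 and 10.9 in WT and 4.73 and 12.4 in *axe1-5*. The H3K27me3 libraries of *axe1-5* differed from each other: replicate 1 kept 8879066 tags with fragments modelled at 282 bp, and replicate 2 kept 1439377 with 53 bp. In WT they kept 1976886 and 8681380 tags with 52 and 54 bp. Differences in H3K27me3 between the genotypes therefore rest on libraries that are not alike, and their part in the counts was not tested.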

How the data were processed

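Per the study's methods, reads were trimmed with Trimmomatic 0.36.5, aligned to TAIR10 with Bowtie (version not given in the sources used here, default settings), and each antibody library was set against an input in MACS 1.4.2. Per the file headers the p-value cutoff was 1.00e-05, and the authors' tag count of a peak came from reads of 51 bases after removal of duplicate positions. The deposited score is a multiple of the negative log10 of the p-value. The authors' fold enrichment is a ratio of the peak's height to the background that MACS models. The deposited FDR is in percent.

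From these lists, summits (start plus offset) were placed in the 37899 nuclear loci of the TAIR10.1 annotation (RefSeq); no peak ended beyond its chromosome. The RefSeq promoter table was not used, and promoters were read from the genome. Families were found by words in the annotation (22 families) and pathways by 7 lists of loci. Members and lists were chosen with earlier results of these data known. With 2 libraries against 2, no p-value was computed per locus. Named were the 10 gained and 10 lost protein-coding loci with the highest lower replicate value and no overlapping peak on the other side, 5 of each from other biotypes (by the same value), all members on the lists and *HDA6*; family examples and Sadhu elements were named after their values were seen. Loci are not replicates, and p-values measure the spread between libraries, which the study's methods describe as independent biological replicates. Tag counts give no interval here, since a peak list does not hold counts where no peak was called. 3 H3K27me3 lists with MeJA were not analysed here. Python 3.11.15, numpy 2.4.6 and pandas 2.3.3 were used.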

Additional observations from a re-analysis of the deposited data

How the results depend on the processing

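The number of gained loci stayed within 1.5 times the reported 1269 when peaks were required to have a score of at least 100 or an FDR of at most 5%, under any overlap, with no overlapping peak on the other side, with 1000 bp upstream, for protein-coding loci and for clusters (1034 to 1560); with lists of equal length it was 766. Lost loci, 252 as reported, numbered 663 with lists of equal length, 122 under any overlap with the locus on both sides and 79 when no peak of the other side could overlap; other such settings gave 187 to 273. Leaving out 1 replicate in turn gave 1598 to 2566 gained and 438 to 1104 lost loci, since fewer lists have to meet the rule: without WT replicate 1 these were 1975 and 671, without WT replicate 2 they were 2172 and 469, without *axe1-5* replicate 1 they were 1598 and 1104, and without *axe1-5* replicate 2 they were 2566 and 438.

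Gained pseudogenes (99) numbered 184 under any overlap, 150 with 1000 bp upstream and 155 without *axe1-5* replicate 2, and 78 to 126 in the other settings that count them.

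The pericentromeric share remained higher in *axe1-5* in each setting run: the difference of 1.06 percentage points was 0.73 at a score of at least 100, 1.16 with equal lists, 0.572 with 1.5 Mb on either side, 0.915 with the centre at the window richest in pseudogenes, and 0.965 to 1.16 without 1 replicate. For the non-coding and pseudogene share, 1.03 became 1.2 at a score of at least 100, 0.949 at an FDR of at most 5%, 1.11 with equal lists, and 1.01 to 1.05 without 1 replicate. The centre by pseudogenes and the restriction to windows unique in the genome were chosen after seeing the data.

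With the replicate block, that is with the rule applied within each same-numbered pair, 1269 and 252 loci were called by construction, and the mean differences within pairs were 1.06 and 1.03. The samples share only a number: deviations of the replicates correlated at -0.0261 over 9721 loci. WT kept the fewest tags, and the part of depth in the absence of a summit was not tested.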
